A study of Mus musculus with 31 samples.

Results

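Xenobiotic phase I and II enzymes were examined in mouse colon RNA sequenced 7 days post induction. The set holds every gene whose symbol starts with Cyp1, Cyp2, Cyp3 or Cyp4 and a letter. It also holds those that start with Ugt1a, Ugt2a, Ugt2b, Gsta, Gstm, Gstp, Gstt, Gsto, Gstk or Sult. This rule uses names and no measured values, but the set was chosen with earlier results of these data known. The set comprised 114 of the 27623 genes in the deposited table, 64 of phase I and 50 of phase II, after 1 pseudogene symbol was left out. Of these, 52 reached at least 1 FPKM (fragments per kilobase of gene, scaled to the fragments of the library) in at least 10 libraries and were tested, and 62 were not. Among those not tested, 51 stayed below 1 FPKM in every library.

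Genotype defines 3 groups of libraries. WT libraries (n = 11) came from mice with floxed Tak1 alleles (Tak1 f/f) and Ripk1 D138N/D138N, which leaves RIPK1 without kinase activity. HO libraries (n = 10) were TAK1 IEC-KO with Ripk1 D138N/D138N, and so lacked the kinase TAK1 in intestinal epithelial cells (IEC). DHO libraries (n = 10) were TAK1 IEC-KO with Ripk1 D138N/D138N and Tradd IEC-KO, and so also lacked TRADD, an adaptor of the TNF receptor complex, in those cells. All 31 libraries thus carried the Ripk1 mutation, and none stands for mice with an active RIPK1 kinase. The labels and title put the role of TRADD in the colitis that follows loss of TAK1 at the centre. The sources used here give no Cre driver, inducing agent or age, and do not state that each library came from a separate animal.

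Foreign compounds are cleared in a pair of stages. In phase I, cytochrome P450 enzymes (CYP) of the endoplasmic reticulum oxidise a compound, with electrons passed on by P450 reductase. In phase II, UDP-glucuronosyltransferases (UGT), sulfotransferases (SULT) and glutathione S-transferases (GST) attach glucuronic acid, sulfate or glutathione, which makes the product water soluble and ready for export. The liver holds most of this capacity, but the absorptive epithelium of the gut carries a set of its own that meets dietary and microbial compounds first. The CYP4 family mainly hydroxylates fatty acids and eicosanoids rather than drugs, and many GST enzymes also detoxify products of lipid peroxidation.

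The values implied between 30800000 and 40400000 fragments per library. Tradd was lower in DHO than in HO (log2 fold change -2.72 ± 0.23 SE, adjusted p = 1.31e-11), and it was also lower in HO, where it was not deleted, than in WT (-1.75 ± 0.22, adjusted p = 3.04e-08). Map3k7, which encodes TAK1, was higher in whole tissue in HO than in WT (0.35 ± 0.10, adjusted p = 0.00362), so these levels do not check the TAK1 label. The epithelium score, the mean log2(FPKM + 0.5) of 15 epithelial genes such as Epcam and Cdh1, was 8.41 to 8.64 in WT and 0.348 to 5.65 in 9 HO libraries, but 8.25 in HO replicate 2. In DHO it was 7.75 to 8.86, with DHO replicate 8 lowest. The score of 10 neutrophil genes was -0.71 to -0.07 in WT and 6.87 to 9.60 in HO. It was -0.76 to 0.93 in 8 DHO libraries, 6.24 in DHO replicate 8 and 3.57 in DHO replicate 9. The noncoding RNA Gm15564 split the libraries into 17 at 0 to 0.0736 FPKM (division 1) and 14 at 6.27 to 14.5 FPKM (division 2), with libraries of every group in both. The labels name no batch, so what this division stands for is unknown. Of the hepatocyte list, Alb had a WT median of 0.901 FPKM and Serpina1a was listed at a median of 0 in all 3 groups, while Ttr and Tat of the same list had WT medians of 52.1 and 10.4 FPKM.

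In intact colon the enzymes were dominated by few families. The summed level of the 114 genes in WT ran from 2081 to 2968 FPKM with a median of 2685. CYP2 genes made up 25.1% of the WT mean sum, the GSTM genes 21.2%, Gsto1 nearly all of the 13.5% of the GSTO class, the SULT genes 10.7% and the GSTP genes 9.83%. In HO the sum had a lowest value of 400.6, a median of 631 and a highest of 1341 FPKM. The WT and HO groups did not overlap, and the highest HO value belonged to replicate 2, above the 714 FPKM of the next HO library. The make-up shifted as well, with CYP2 at 4.39% and GSTP at 33.4% of the HO sum, or 2.89% and 33.8% without HO replicate 2. In DHO the sum had a lowest value of 595.5, a median of 2082 and a highest of 2415 FPKM. DHO replicates 7, 8 and 9, at 1138, 595.5 and 761 FPKM, lay within the HO range. That range passed 714 FPKM only through HO replicate 2, and without it only DHO replicate 8 lay within. The other DHO libraries ranged from 1829 to 2415 FPKM.

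**Figure D1:**
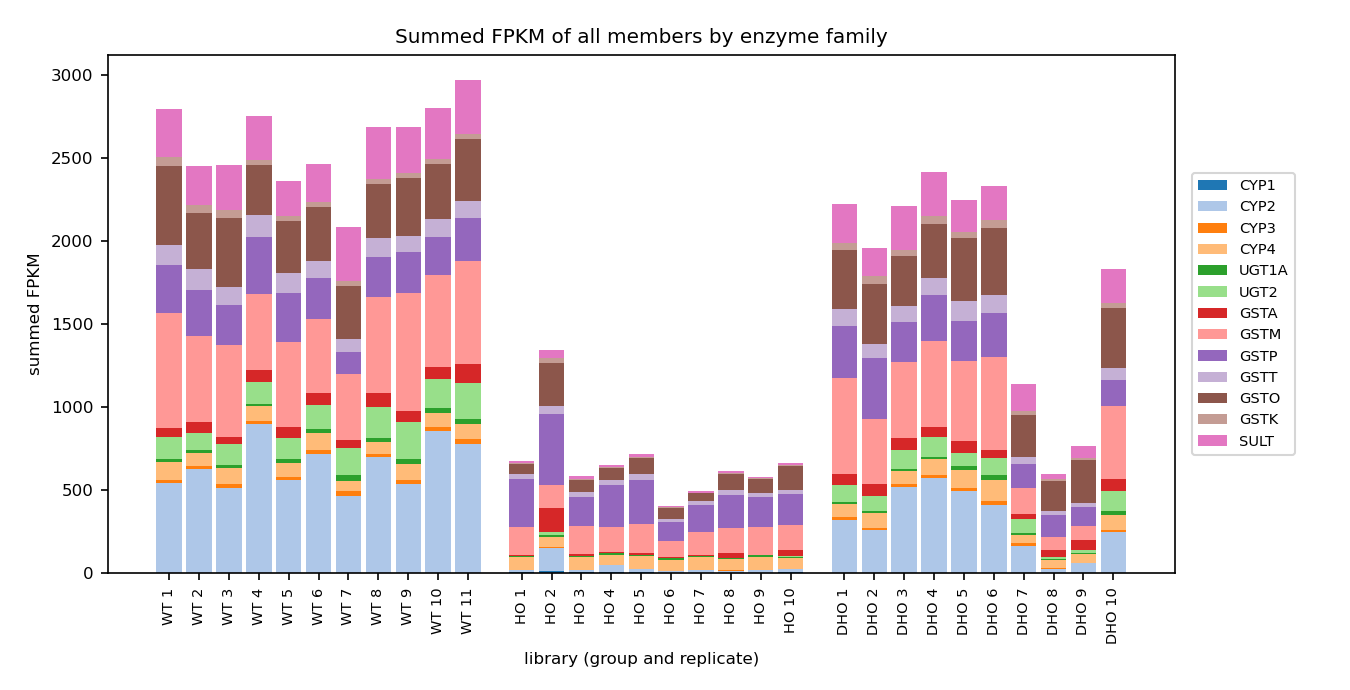
Stacked bars give the summed FPKM of the 114 genes by enzyme family in each of the 31 libraries (vertical axis, FPKM, from 0). All 11 WT libraries stand at or above 2081 FPKM, every HO library lies at or below 1341 FPKM, and DHO replicates 8 and 9 stand at 595.5 and 761 FPKM.

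Most of the tested enzymes were lower in HO than in WT and higher in DHO than in HO. In HO against WT, 46 of 52 were lower, 4 were higher and 2 were not called (limma on log2(FPKM + 0.5), adjusted p below 0.05), where 71.4% of all 12812 tested genes were called, 38.4% as lower and 33.0% as higher. The median log2 fold change of the enzymes was -2.32, against -0.06 for all tested genes. For 33 of the 52, every HO library lay below every WT library, which held for 15.9% of all tested genes. Of the 24 P450 genes 20 were lower and 3 higher, and of the 28 phase II genes 26 were lower and 1 higher. These counts are not independent of the filter: 24 of the 52 enzymes had a median of at least 1 FPKM in WT and DHO but not in HO, and 3 in WT alone, so they could enter the test only through groups in which they were high. Likewise Cyp4f17 reached that median in HO alone and Cyp4f18 in HO and DHO, which makes 2 of the 4 enzymes called higher in HO.

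In DHO against HO, 38 of 52 enzymes were higher, 5 were lower and 9 were not called, where 68.7% of all tested genes were called, 39.0% as higher and 29.7% as lower. The median log2 fold change was 1.95, against 0.10 for all tested genes. This comparison shares its HO libraries with that of HO and WT, so a gene that was low in HO counts in both. The limit set by the filter applies here too, as 24 of the 52 enzymes reached its median level in WT and DHO but not in HO. Only 3 enzymes, Cyp2c68, Sult1b1 and Sult1c2, had every DHO library above every HO library, and 7.27% of all tested genes did so. No enzyme had every DHO library below every HO library, against 7.39% of all tested genes. In whole tissue, fewer cells of a type and less RNA per cell cannot be told apart. All 15 epithelial list genes were lower in HO than in WT and all 10 tested neutrophil genes were higher, and the part of these shifts in the enzyme levels was not tested.

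**Figure D2:**
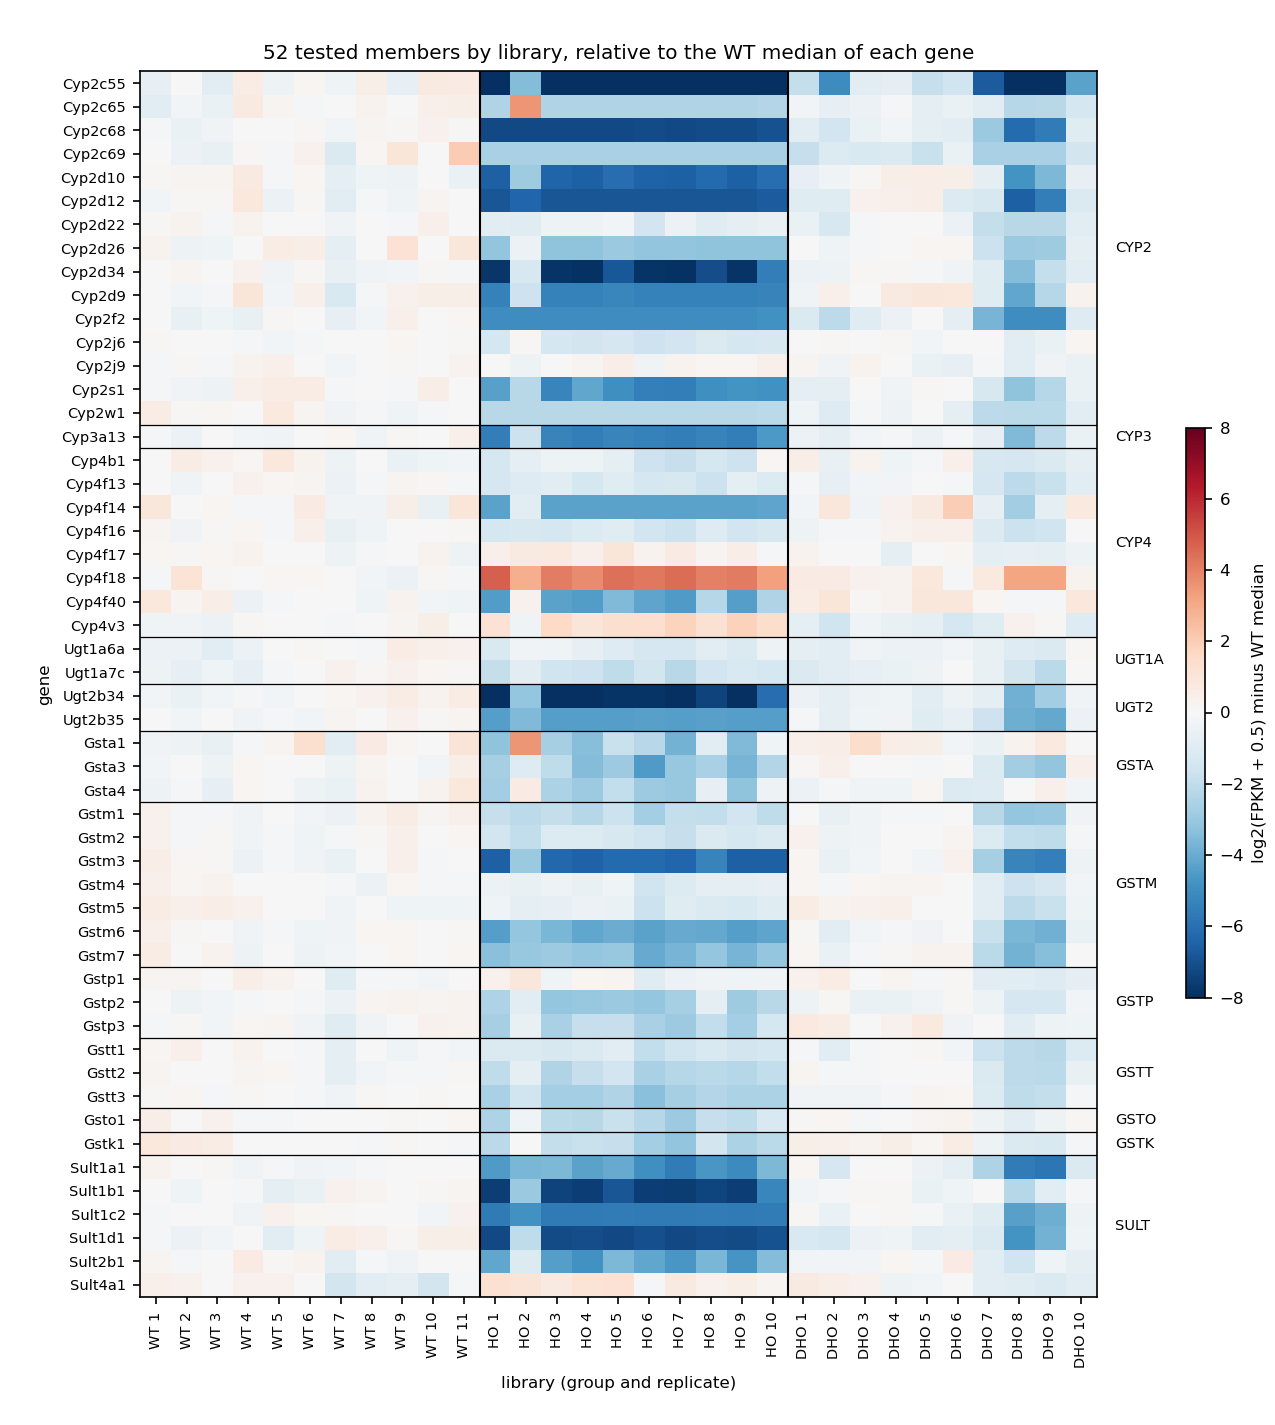
Each row is 1 of the 52 tested enzymes, ordered by family, and each column 1 library; colour gives log2(FPKM + 0.5) minus the WT median of that gene, limited to the range from -8 to 8. HO columns are blue in most rows, HO replicate 2 keeps or exceeds WT levels in some rows, and DHO replicates 8 and 9, with DHO replicate 7 to a lesser degree, are blue where the other DHO columns are near white.

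Among the phase I enzymes, 14 of the 15 tested CYP2 members were lower in HO, with a family median of -4.76. Cyp2c55, a mouse P450 that oxidises arachidonic and linoleic acid and is known from colon, had the highest level of any P450 in WT, with a lowest value of 124, a median of 229.8 and a highest of 386 FPKM. In HO the values were 0, 0.00609 and 20.5 FPKM, and in DHO 0.0542, 36.7 and 135 FPKM. HO lay wholly below WT, with 20.5 FPKM in replicate 2. DHO replicates 2, 7, 8, 9 and 10 lay below that HO value, and only DHO replicate 4, at 135 FPKM, reached the WT range. The log2 fold change was -8.24 ± 0.85 (SE, adjusted p = 4.70e-10) in HO against WT and 4.23 ± 0.87 (adjusted p = 7.85e-05) in DHO against HO.

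The Cyp2c genes lie in a cluster on chromosome 19, and the bases before their starts are shown because 4 of them, Cyp2c55, Cyp2c65, Cyp2c68 and Cyp2c69, were all lower in HO. Each sequence is the 250 bases before the transcription start from RefSeq (GRCm38.p6), written 5′ to 3′ on the strand of the gene. Capitals mark CAAAGTCCA, a binding motif of HNF4, and GCGTG or its reverse complement CACGC, the core motif of the aryl hydrocarbon receptor (AHR). HNF4 is a transcription factor of liver and gut epithelium, and AHR is a sensor of dietary and microbial compounds. The windows are chr19:39006769-39007018 (plus strand) for Cyp2c55, chr19:39060756-39061005 (plus strand) for Cyp2c65, chr19:39741102-39741351 (minus strand) for Cyp2c68 and chr19:39886770-39887019 (minus strand) for Cyp2c69.
Cyp2c55: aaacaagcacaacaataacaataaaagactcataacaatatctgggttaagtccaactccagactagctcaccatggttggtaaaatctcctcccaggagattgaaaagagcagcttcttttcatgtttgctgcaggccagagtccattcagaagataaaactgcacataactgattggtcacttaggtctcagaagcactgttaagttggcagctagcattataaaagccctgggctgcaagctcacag
Cyp2c65: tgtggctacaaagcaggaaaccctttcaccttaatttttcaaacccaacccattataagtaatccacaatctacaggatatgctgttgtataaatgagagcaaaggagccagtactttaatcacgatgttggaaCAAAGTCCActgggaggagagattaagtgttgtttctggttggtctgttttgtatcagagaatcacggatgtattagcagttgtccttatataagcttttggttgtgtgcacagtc
Cyp2c68: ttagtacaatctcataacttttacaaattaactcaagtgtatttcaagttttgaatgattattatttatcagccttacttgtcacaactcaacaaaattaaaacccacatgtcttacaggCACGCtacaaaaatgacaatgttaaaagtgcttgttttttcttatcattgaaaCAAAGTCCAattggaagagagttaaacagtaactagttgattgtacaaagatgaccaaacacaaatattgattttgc
Cyp2c69: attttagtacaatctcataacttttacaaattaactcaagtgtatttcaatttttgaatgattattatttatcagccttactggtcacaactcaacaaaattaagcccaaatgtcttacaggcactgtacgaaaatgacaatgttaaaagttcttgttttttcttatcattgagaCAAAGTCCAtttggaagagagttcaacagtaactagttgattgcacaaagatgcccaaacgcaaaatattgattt

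CAAAGTCCA began 116 bases before the start of Cyp2c65, 77 bases before that of Cyp2c68 and 75 bases before that of Cyp2c69, and was not among the letters shown for Cyp2c55. The windows of Cyp2c68 and Cyp2c69 share 100 of their 239 words of 12 bases, so they are not independent cases. In the full windows of 300 bases, from 250 before to 50 after a start, and on both strands, CAAAGTCCA was present for 9 of the 102 enzymes with a window in the table (8.82%), for 4 of the 41 of those that were lower in HO (9.76%) and for 0.555% of all 27025 genes with a window. The fourth of those lower in HO was Sult1b1. GCGTG was present for 11 of the 41 and for 35.2% of all genes. The core motif TGACNNNGC of the antioxidant response element was present for 6 of the 41 and for 3781 of the 27025 genes. These 3 were among 11 motifs searched after the expression values had been seen, and no binding was measured here.

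Cyp2c65 was lower in HO than in WT by -1.83 ± 0.50 (adjusted p = 0.00162), with overlap of the groups. That overlap came from HO replicate 2 alone, at 30.96 FPKM against a WT maximum of 3.94 FPKM. The other HO libraries were at most 0.015 FPKM. Cyp2c68 had 50.9, 74.5 and 93.8 FPKM in WT (lowest, median and highest), 0, 0.0069 and 0.0958 FPKM in HO, and 0.554, 39.0 and 62.9 FPKM in DHO. HO did not overlap with either of the other groups, and HO replicate 2 was listed at 0 although its epithelium score was close to WT. Its log2 fold change was -7.15 ± 0.51 in HO against WT (adjusted p = 2.65e-13) and 5.14 ± 0.53 in DHO against HO (adjusted p = 6.32e-10). Cyp2c69 was listed at 0 in all 10 HO libraries and had a median of 2.55 FPKM in WT and 0.484 FPKM in DHO. Of the 50-base words of their exons, 43.3% of those of Cyp2c68 and 54.3% of those of Cyp2c69 also occur in another gene, mostly Cyp2c40, so their separate levels are uncertain.

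The Cyp2d genes, a cluster on chromosome 15 related to the human drug-metabolising CYP2D6, followed. Cyp2d34 had 79.4, 119.6 and 151.5 FPKM in WT, 0, 0.0411 and 48.1 FPKM in HO, and 10.5, 88.0 and 127.5 FPKM in DHO. WT and HO did not overlap, but the 48.1 FPKM of HO replicate 2 exceeded DHO replicates 8 and 9, at 10.5 and 31.6 FPKM. The log2 fold changes were -6.73 ± 0.56 in HO against WT (adjusted p = 4.96e-12) and 5.96 ± 0.57 in DHO against HO (adjusted p = 1.84e-10). Cyp2d12 was lower in HO by a log2 fold change of -6.73, Cyp2d10 by -5.96 and Cyp2d9 by -5.06, and each was higher in DHO than in HO by 4.54 to 5.17. Of Cyp2d10, 35.8% of the 50-base words occur in another gene, mostly Cyp2d11.

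Cyp2f2, known in mouse airway for activating naphthalene, had 9.53, 15.4 and 20.9 FPKM in WT, 0, 0 and 0.0481 FPKM in HO, and 0, 6.87 and 15.3 FPKM in DHO. Its HO libraries lay below all WT libraries, and it was listed at 0 in DHO replicates 8 and 9. The log2 fold change was -4.83 ± 0.45 in HO against WT (adjusted p = 5.52e-11) and 2.94 ± 0.46 in DHO against HO (adjusted p = 1.44e-06). Cyp2j9 alone of the tested CYP2 genes was not called in HO against WT (log2 fold change 0.07 ± 0.13, adjusted p = 0.667), and it was lower in DHO than in HO (-0.40 ± 0.13, adjusted p = 0.00909).

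Only 1 of 6 CYP3 genes was expressed enough to be tested. Cyp3a13, a mouse relative of the human intestinal drug oxidase CYP3A4, had 16.4, 23.2 and 31.3 FPKM in WT, 0.00436, 0.0733 and 6.64 FPKM in HO, and 1.55, 16.3 and 21.4 FPKM in DHO. HO lay wholly below WT, and its highest value was that of replicate 2. The log2 fold changes were -4.93 ± 0.38 in HO against WT (adjusted p = 1.37e-12) and 4.09 ± 0.39 in DHO against HO (adjusted p = 1.98e-10). Cyp3a25 and Cyp3a59 had WT medians of 0.0138 and 0.0321 FPKM and were listed at 0 in every HO library.

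**Figure D3:**
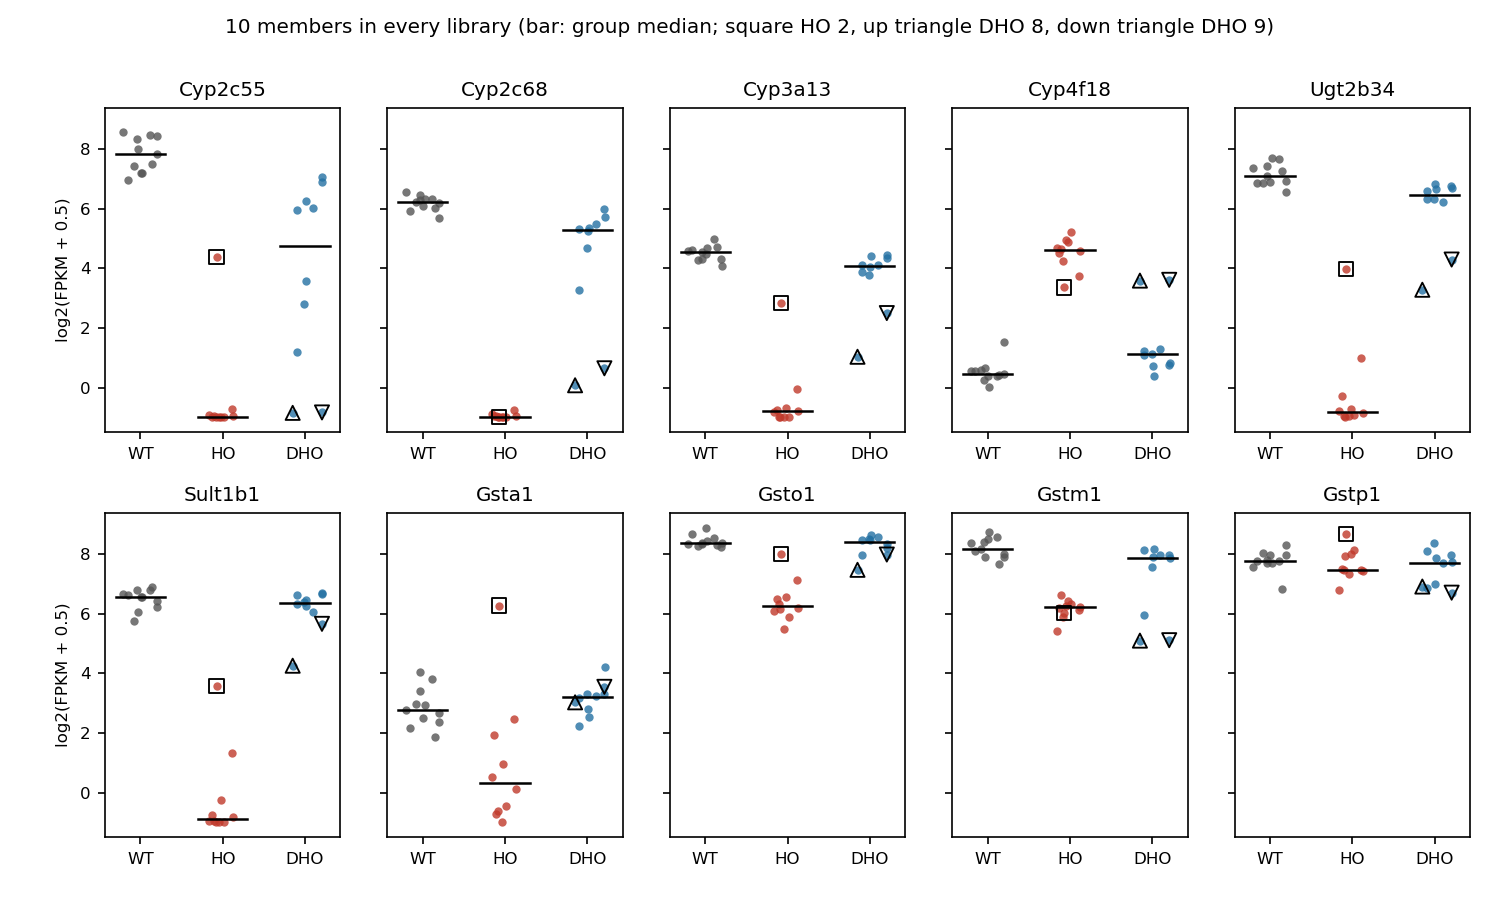
Points give log2(FPKM + 0.5) of 10 enzymes in each WT, HO and DHO library, with a bar at the group median and open marks around HO replicate 2, DHO replicate 8 and DHO replicate 9. Cyp4f18 is high in HO, Gstp1 overlaps in all 3 groups, the remaining enzymes are low in most HO libraries, and Gsta1 in HO replicate 2 lies above every WT library.

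Of the 8 tested CYP4 genes, 5 were lower and 3 higher in HO against WT. Of all tested genes 38.4% were lower and 33.0% higher there, so the higher count is near that share. Cyp4f18, which in mouse hydroxylates leukotriene B4 and is known from neutrophils, had 0.517, 0.878 and 2.38 FPKM in WT, 9.77, 23.97 and 37.0 FPKM in HO, and 0.798, 1.67 and 11.8 FPKM in DHO. Among the 52 tested enzymes it was the 1 with every HO library above every WT library (16.1% of all tested genes), and the highest DHO values, 11.6 and 11.8 FPKM, were those of replicates 8 and 9, which also had the highest neutrophil scores of DHO. The log2 fold change was 3.95 ± 0.32 in HO against WT (adjusted p = 3.29e-12) and -3.02 ± 0.33 in DHO against HO (adjusted p = 2.14e-09). Its neighbour Zfp961 shares 9.76% of its exon bases.

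Cyp4v3, the mouse counterpart of human CYP4V2, a fatty acid hydroxylase, had 6.55, 9.20 and 12.9 FPKM in WT, 7.28, 23.7 and 33.7 FPKM in HO, and 2.73, 5.37 and 11.6 FPKM in DHO. HO replicate 2, at 7.28 FPKM, lay within the WT range, and the other HO libraries lay above it. The log2 fold change was 1.27 ± 0.21 in HO against WT (adjusted p = 4.52e-06) and -1.93 ± 0.22 in DHO against HO (adjusted p = 4.92e-09). Cyp4f17 was raised in HO relative to WT by 0.49 ± 0.14 (adjusted p = 0.00261), from a WT median of 0.841 to an HO median of 1.36 FPKM. Cyp4f16 and Cyp4f13, the CYP4 genes with the highest levels, had WT medians of 35.8 and 15.7 FPKM and HO medians of 13.6 and 6.65 FPKM, and were lower in HO by -1.29 ± 0.21 (adjusted p = 2.79e-06) and -1.20 ± 0.21 (adjusted p = 5.45e-06). The summed CYP4 level was 64.8 to 107.8 FPKM in WT and 60.5 to 81.8 FPKM in HO, with overlap.

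None of the 3 CYP1 genes passed the filter. Cyp1a1, the best known target of AHR, had 0.0558, 0.306 and 0.981 FPKM in WT and 0, 0.022 and 0.0691 FPKM in HO. Cyp1b1, an oestrogen hydroxylase known from connective tissue, went the other way, with 0, 0.0116 and 0.0826 FPKM in WT, 0.367, 1.94 and 7.73 FPKM in HO and a median of 0.0185 FPKM in DHO. All HO libraries lay above all WT libraries for Cyp1b1. In a fit of all 27623 genes without a filter, the log2 fold change in HO against WT was 2.20 ± 0.24 for Cyp1b1 (adjusted p = 4.81e-09) and -0.65 ± 0.15 for Cyp1a1 (adjusted p = 0.000408). In that fit 20 of the 62 enzymes under the filter were lower in HO and 7 were higher, where 24.1% of all 27623 genes were lower and 23.8% were higher. Those higher included Cyp2ab1 (0.48 ± 0.08, adjusted p = 6.00e-06), which was at most 0.552 FPKM in HO. Cyp2e1, an ethanol-oxidising P450 chosen here after its values were seen, was at 27.96 FPKM in HO replicate 4 and at a median of 0.372 FPKM in HO.

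The glucuronosyltransferases were lower in HO in all 4 tested cases. Ugt2b34, a microsomal UGT of the steroid and xenobiotic conjugating UGT2B branch, had 95.2, 136.7 and 208.3 FPKM in WT, 0, 0.0713 and 15.3 FPKM in HO, and 9.24, 88.1 and 112.6 FPKM in DHO. All HO libraries lay below all WT libraries, and 15.3 FPKM in HO replicate 2 exceeded the 9.24 FPKM of DHO replicate 8. The log2 fold changes were -7.31 ± 0.48 in HO against WT (adjusted p = 3.79e-14) and 6.16 ± 0.49 in DHO against HO (adjusted p = 4.57e-12). Ugt2b35 was lower in HO by -4.31 ± 0.36 (adjusted p = 5.19e-12).

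The UGT1A isoforms differ in their first exon and share the rest, so 54.6% of the exon bases of Ugt1a7c and 50.3% of those of Ugt1a6a belong to more than 1 gene, and their separate levels are uncertain. Ugt1a7c had 14.2, 22.5 and 29.2 FPKM in WT, 4.45, 7.35 and 11.7 FPKM in HO, and 4.64, 14.3 and 22.8 FPKM in DHO. WT and HO did not overlap, and the log2 fold change was -1.49 ± 0.21 (adjusted p = 1.52e-07). Ugt1a6a, a phenol conjugating isoform, was lower in HO by -0.76 ± 0.18 (adjusted p = 0.000485). Ugt1a1, the bilirubin conjugating isoform, was not tested, with a WT median of 0.791 FPKM, an HO median of 0.00996 FPKM and 1.95 FPKM in HO replicate 2.

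Of the 6 tested sulfotransferases 5 were lower in HO and 1 was higher. Sult1b1, which sulfonates phenols and thyroid hormones, had 54.2, 94.4 and 120.2 FPKM in WT, 0, 0.046 and 11.5 FPKM in HO, and 18.6, 82.2 and 102.4 FPKM in DHO. HO lay below every library of both other groups. The log2 fold changes were -6.67 ± 0.41 in HO against WT (adjusted p = 9.38e-15) and 6.32 ± 0.42 in DHO against HO (adjusted p = 1.07e-13). Sult1d1, a mouse sulfotransferase of catecholamines, had a WT median of 72.8, an HO median of 0.0195 and a DHO median of 35.1 FPKM, and was lower in HO by -6.62 ± 0.53 (adjusted p = 2.78e-12).

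Sult1a1, the main phenol sulfotransferase, had 54.1, 66.5 and 81.8 FPKM in WT, 0.898, 2.63 and 5.15 FPKM in HO, and 0.737, 35.4 and 75.3 FPKM in DHO. In DHO replicates 8 and 9 it stood at 0.901 and 0.737 FPKM, next to the lowest HO value of 0.898 FPKM, while the DHO median lay between the other groups. The log2 fold changes were -4.35 ± 0.55 in HO against WT (adjusted p = 2.79e-08) and 2.67 ± 0.56 in DHO against HO (adjusted p = 0.000111). Sult4a1, best known from brain and without a well established substrate, was the 1 of these 6 that was higher in HO, by 0.99 ± 0.27 (adjusted p = 0.00154). Its values were 0.718, 2.83 and 3.93 FPKM in WT, 2.57, 5.03 and 7.42 FPKM in HO, and 1.02, 2.18 and 4.95 FPKM in DHO, with overlap between all groups. Among the sulfotransferases under the filter, Sult5a1 had 0.0161, 0.0904 and 0.397 FPKM in WT and 0.73, 1.47 and 2.73 FPKM in HO, without overlap, and was higher in HO by 1.68 ± 0.16 (adjusted p = 1.82e-10) in the fit without a filter. Sult1e1 (0.64, adjusted p = 0.0213) and Sult6b2 (0.15, adjusted p = 0.00144) were also higher in that fit. Their highest HO values were 1.62 and 0.153 FPKM, both overlapped with WT, and Sult6b2 was near 0 throughout.

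All tested glutathione S-transferases but Gstp1 were lower in HO, with class medians of -1.93 (GSTA), -2.06 (GSTM), -2.04 (GSTP) and -1.93 (GSTT), beside -4.96 for SULT. Gsto1, the omega class enzyme that reduces dehydroascorbate, was the highest enzyme of the set in WT, with 301.0, 330.3 and 475 FPKM. In HO it had 44.5, 77.0 and 257.5 FPKM and in DHO 178, 341 and 402 FPKM. WT and HO did not overlap, and the HO value of 257.5 FPKM was that of replicate 2. The log2 fold changes were -1.998 ± 0.20 in HO against WT (adjusted p = 1.62e-10) and 1.83 ± 0.20 in DHO against HO (adjusted p = 2.29e-09).

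Gstm1, a mu class enzyme that conjugates epoxides, had 203.5, 286.5 and 432.5 FPKM in WT, 42.8, 74.1 and 99.0 FPKM in HO, and 33.8, 237 and 288 FPKM in DHO. WT and HO did not overlap, and DHO reached down to 33.8 and 34.2 FPKM in replicates 8 and 9, below every HO library. The log2 fold change was -2.06 ± 0.32 in HO against WT (adjusted p = 1.20e-06) and 1.02 ± 0.33 in DHO against HO (adjusted p = 0.00716). The latter was -0.12 (adjusted p = 0.843) in division 2 alone. All 7 GSTM genes were lower in HO, by -0.73 to -5.91, with Gstm2 and Gstm5 at WT medians of 107.8 and 54.6 FPKM and HO medians of 42.3 and 30.8 FPKM. Gstm6 was lower by -4.02 ± 0.37 (adjusted p = 4.56e-11).

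Gstp1, the pi class enzyme, was not called in any of the 3 comparisons over all libraries. It had 112.6, 218 and 316 FPKM in WT, 112.1, 179 and 408.5 FPKM in HO, and 104.4, 210.3 and 333.5 FPKM in DHO, with full overlap of the groups. The log2 fold change was -0.09 ± 0.21 in HO against WT (adjusted p = 0.714) and -0.24 ± 0.21 in DHO against WT (adjusted p = 0.441), although in division 2 alone it was lower in DHO than in WT (-0.64 ± 0.19, adjusted p = 0.0205). Its paralog Gstp2, with 16.4, 22.7 and 27.6 FPKM in WT and 2.21, 2.98 and 13.8 FPKM in HO, was lower in HO by -2.36 ± 0.26 (adjusted p = 1.25e-09). Because 33.7% of the 50-base words of Gstp1 and 54.3% of those of Gstp2 occur in another gene, mostly each other, their separate levels are uncertain. Gstp3 was lower in HO by -2.04 ± 0.24 (adjusted p = 5.16e-09).

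Gsta1 had 3.14, 6.32 and 16.2 FPKM in WT, 0, 0.761 and 77.2 FPKM in HO, and 4.23, 8.66 and 17.95 FPKM in DHO. The highest HO value, in replicate 2, lay above every WT library, and the group was lower than WT by -1.92 ± 0.56 (adjusted p = 0.00315). In division 1 alone, which holds that library, the log2 fold change was -1.53 (adjusted p = 0.152). Of the 50-base words of Gsta1, 90.5% occur in another gene, mostly Gm3776, so its level cannot be separated from that gene. Gsta4, which conjugates the lipid peroxidation product hydroxynonenal, had WT, HO and DHO medians of 34.2, 5.06 and 28.5 FPKM and was lower in HO by -1.93 ± 0.36 (adjusted p = 1.56e-05). Gsta3 was lower in HO by -2.80 ± 0.39 (adjusted p = 1.72e-07), with a WT median of 26.1 and an HO median of 3.41 FPKM.

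Of the other classes, Gstk1, an enzyme of mitochondria and peroxisomes, was lower in HO by -2.14 ± 0.27 (adjusted p = 2.98e-08), from a WT median of 31.8 to an HO median of 7.57 FPKM. The theta class genes Gstt1, Gstt2 and Gstt3 were lower by -1.28, -1.93 and -2.55. Gstt1 was not called in DHO against HO (0.50 ± 0.25, adjusted p = 0.0745), although it was called without DHO replicate 8 (0.64) and without DHO replicate 9 (0.65). Gsto2 was not tested, with a WT median of 0.405 FPKM.

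**Figure D4:**
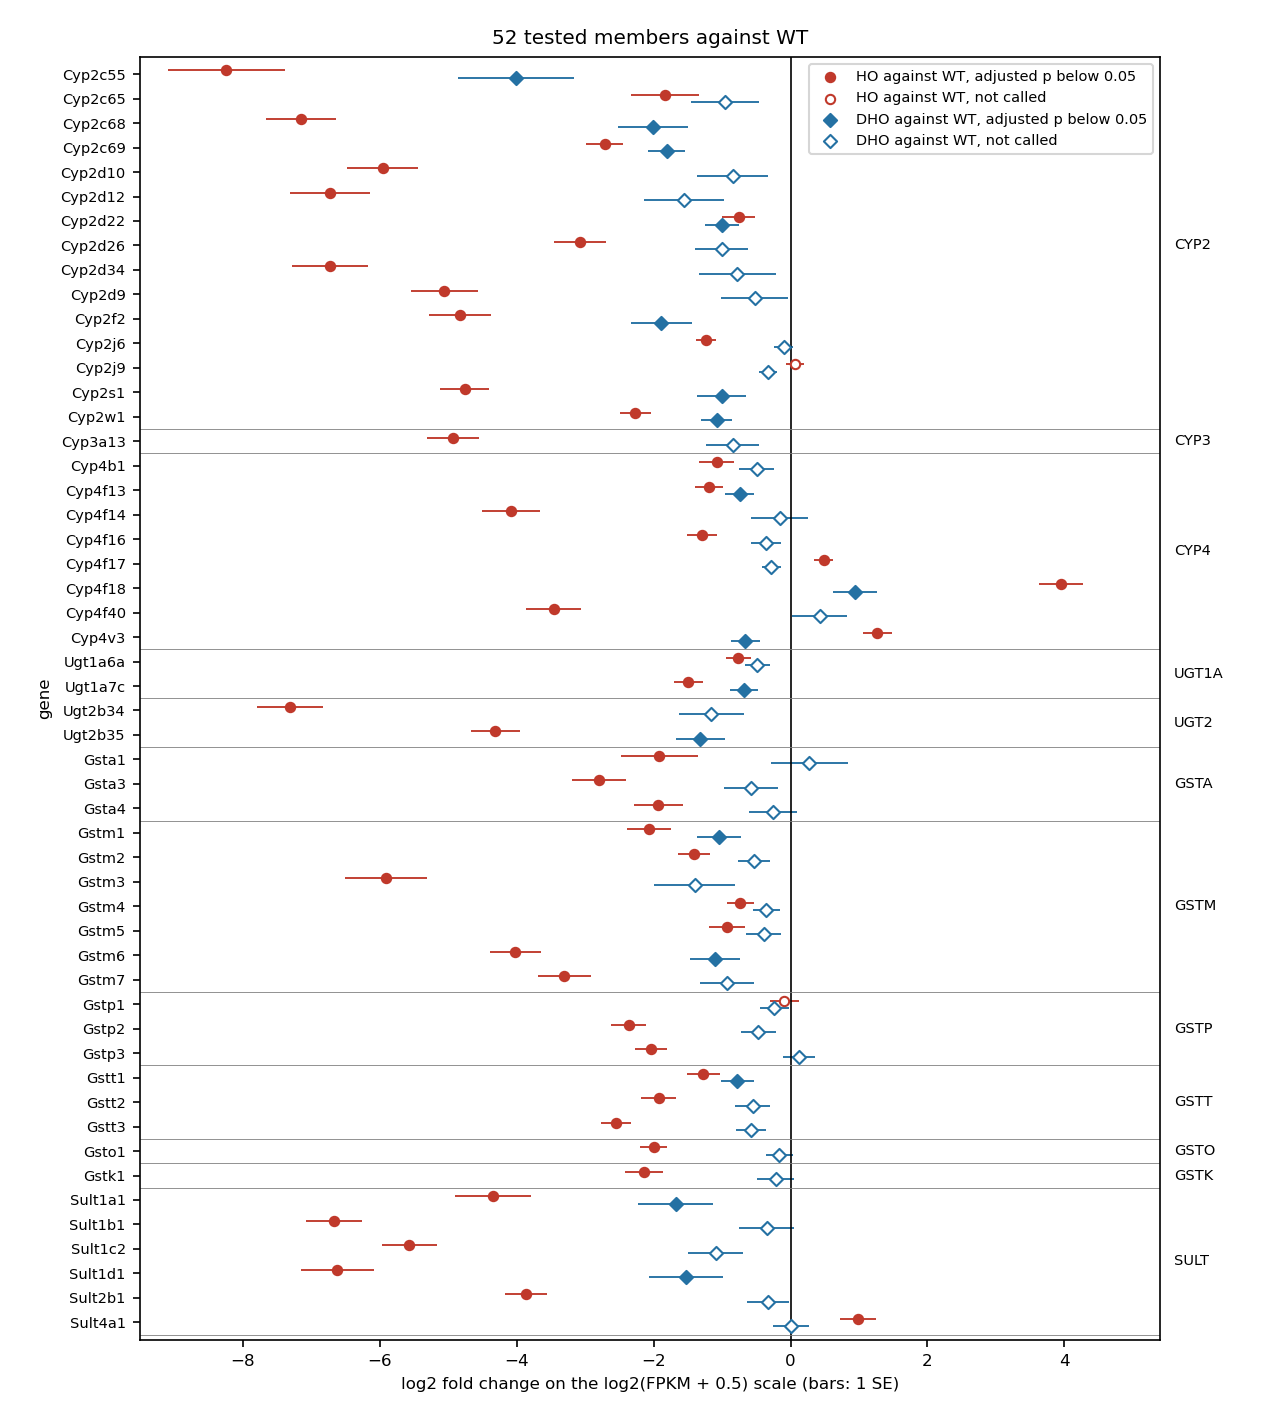
Points give the log2 fold change of each of the 52 tested enzymes in HO against WT (circles) and in DHO against WT (diamonds), with bars of 1 SE; filled marks have an adjusted p below 0.05. Circles range from -8.24 (Cyp2c55) to 3.95 (Cyp4f18), and 16 diamonds to the left of 0 and 1 to the right are filled. Both comparisons share the WT libraries.

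When DHO was set against WT, 16 of 52 enzymes were lower, 1 was higher and 35 were not called. Of all tested genes 21.2% were called, 8.7% were lower and 12.5% were higher in that comparison, 1604 higher against 1115 lower, a split that became 1304 against 1567 with median-of-ratios scaling, under which 22 enzymes were lower. The median log2 fold change of the enzymes was -0.62, against 0.02 for all tested genes, and for none of them did DHO lie wholly below or above WT, against 0.0859% and 0.468% of all tested genes. The enzymes lower in DHO included Cyp2c55 (-4.01 ± 0.85, adjusted p = 0.0023), Cyp2c68 (-2.01 ± 0.51, adjusted p = 0.00779), Cyp2f2 (-1.89 ± 0.45, adjusted p = 0.00501), Cyp2c69 (-1.81 ± 0.27, adjusted p = 0.000104) and Sult1a1 (-1.68 ± 0.55, adjusted p = 0.03). The enzyme that was higher was Cyp4f18 (0.94 ± 0.32, adjusted p = 0.0371). By family, 7 of 15 CYP2, 2 of 8 CYP4, 2 of 7 GSTM, 1 of 3 GSTT and 2 of 6 SULT genes were lower, as were Ugt1a7c and Ugt2b35.

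DHO replicates 8 and 9 each lay below the whole WT range for 44 of the 52 enzymes, within it for 7 and above it for Cyp4f18, and DHO replicate 7 lay below it for 37. Without replicate 8, or without replicate 9, 10 enzymes were lower in DHO than in WT, where 5.78% and 5.62% of all tested genes were. Without both, 8 were lower (4.01% of all tested genes were) and the median log2 fold change was -0.31. Those 8 were Cyp2c55 (-2.85), Cyp2c68 (-1.05), Cyp2c69 (-1.58), Cyp2f2 (-1.15), Cyp2d22, Cyp2w1, Cyp4v3 and Ugt2b35, and Cyp4f18 was then at 0.40 (adjusted p = 0.187). Leaving out HO replicate 2, which enters only through the shared estimate of spread, gave 24 lower (9.95% of all tested genes). Within DHO the same pair of libraries had the highest neutrophil and macrophage scores. Their smooth muscle scores were the lowest, 5.35 and 5.70 against 6.11 to 7.90 in the other DHO libraries. Lowest as well were their scores of 14 colonocyte genes, 4.53 and 5.35 against 6.18 to 7.71. The same held for the scores of 10 goblet cell genes, 4.19 and 5.05 against 6.83 to 8.15. In DHO against WT 9 of 12 macrophage genes were higher and 8 of 9 smooth muscle genes were lower (median -0.94). The part of these cells in the result was not tested.

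The difference between DHO and WT also depended on the division by Gm15564. In division 1, with 6 WT and 6 DHO libraries, 1 enzyme, Cyp2c69, was lower in DHO (-1.17, adjusted p = 0.00862; 0.156% of all tested genes were lower), and the median log2 fold change was -0.15. In division 2, with 5 WT and 4 DHO libraries, 36 were lower and 1 was higher (18.7% of all tested genes were lower), with a median of -1.41. That division holds DHO replicates 7, 8, 9 and 10. Without replicates 8 and 9 it left 17 lower (4.23% of all tested genes) and a median of -0.68, on only 2 DHO libraries. With the division as a term in the fit of all libraries 30 were lower (16.3% of all tested genes).

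A test of the interaction called 22 of the 52 enzymes, all with the more negative value in division 2, and 9.8% of all tested genes. The same test called 9 enzymes in DHO against HO (4.43% of all tested genes). In HO against WT limma called 0 enzymes and 0 genes, with 1 enzyme and 377 genes at an unadjusted p below 0.05. Without DHO replicates 8 and 9 the test called 0 enzymes in either comparison with DHO, while 15 enzymes in DHO against WT and 6 in DHO against HO had an unadjusted p below 0.05. Cyp2c55 is an example of the levels in each division. Its WT median was 202 FPKM in division 1 and 322 FPKM in division 2. Its DHO median was 70.8 and 0.915 FPKM, with ranges of 6.54 to 134.9 and 0.0542 to 11.3 FPKM. Sult1b1 had WT medians of 79.9 and 111.0 FPKM and DHO medians of 82.2 and 69.5 FPKM, and was not called in either division.

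**Figure D5:**
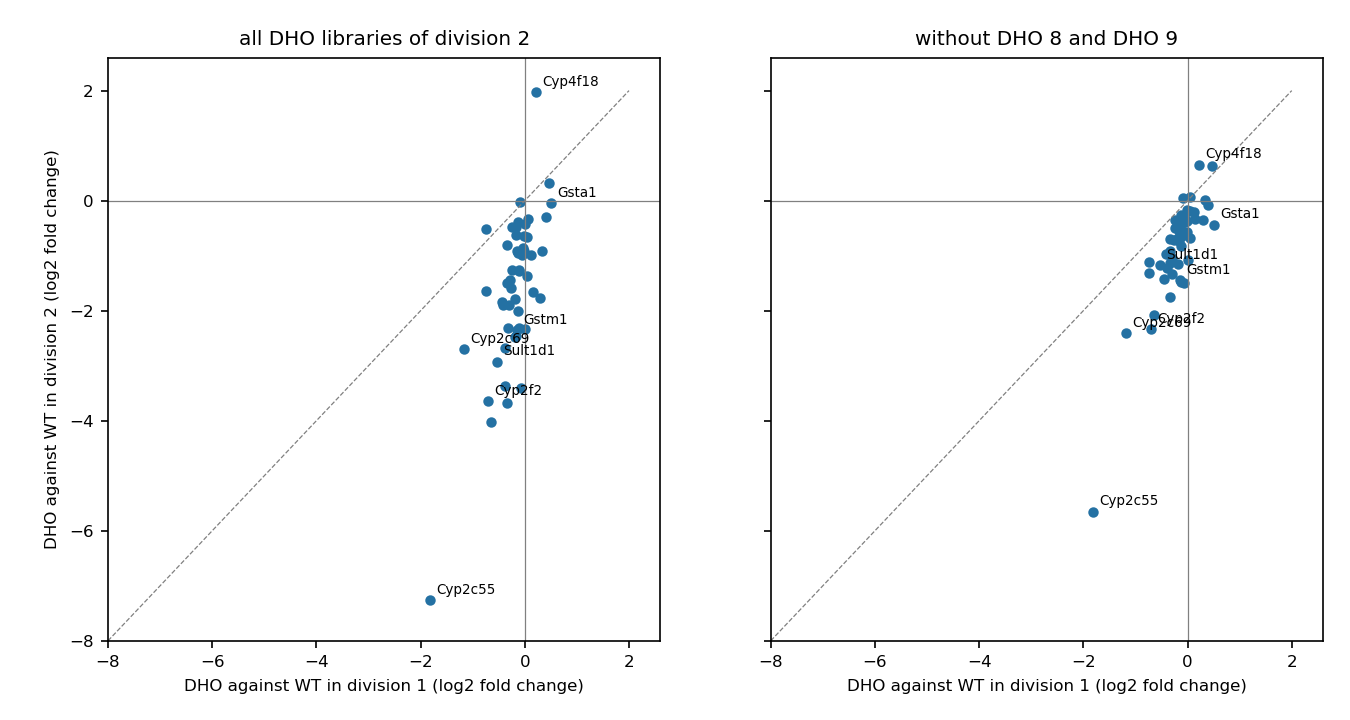
Each point is 1 of the 52 tested enzymes, with its log2 fold change in DHO against WT among division 1 libraries (horizontal axis) and among division 2 libraries (vertical axis), with all DHO libraries on the left and without DHO replicates 8 and 9 on the right; the dashed line marks equal values. Most points lie below the line on the left and move towards it on the right, and Cyp2c55 stays lowest in both.

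Since limma called 0 of the 15 epithelial genes in DHO against WT (0 at an unadjusted p below 0.05), the enzymes were also expressed relative to that score in WT and DHO. With each library's epithelium score subtracted, 22 of 52 enzymes were lower in DHO than in WT, and 7.62% of all tested genes were. By limma 0 enzymes were higher (2 at an unadjusted p below 0.05), and 3.9% of all tested genes were. The median was -0.64. Without DHO replicates 8 and 9, 22 enzymes were again lower, 20 of them the same genes, and 14.1% of all tested genes were lower. Cyp2c55 was at -4.03 ± 0.83 (adjusted p = 0.005) and Sult1d1 at -1.55 ± 0.38 (adjusted p = 0.0137). With the colonocyte score, from 14 tested genes of absorptive cells such as Slc26a3 and Aqp8, as the reference, 5 were lower, namely Cyp2c55, Cyp2c68, Cyp2c69, Cyp2f2 and Sult1d1, and 0.234% of all tested genes were lower. The median was then -0.11 for the enzymes and 0.53 for all tested genes. A ratio of this kind shows unequal change of an enzyme and of the reference genes, and does not say which of them changed.

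HO replicate 2 kept an epithelium score near WT but not the WT enzyme profile. Of the 52 enzymes, 37 lay below the whole WT range in that library, 9 within it and 6 above it. Cyp2c68, Cyp2c69 and Cyp2f2 were listed at 0 there, and Cyp2d12 was at 0.23 FPKM against a WT minimum of 32.5 FPKM. Gsta1, Gstp1, Cyp2c65, Cyp4f17, Cyp4f18 and Sult4a1 lay above WT, with Gsta1 at 77.2, Gstp1 at 408.5 and Cyp2c65 at 30.96 FPKM. Its colonocyte score was 6.07 against 6.74 to 7.37 in WT. As 1 library it gives no measure of spread.

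Genes that serve these enzymes moved in both directions in HO against WT, where 38.4% of all tested genes were lower and 33.0% were higher. Of the 12 tested intestinal transcription factors all 12 were lower (median log2 fold change -3.85), with Hnf4a at -6.16 ± 0.58 (adjusted p = 7.23e-11) and Foxa2 at -4.77 ± 0.35 (adjusted p = 4.23e-13). Among 12 tested xenobiotic sensors and their partners 5 were lower and 3 higher, near the shares of all tested genes (median -0.10). Nr1i2, which encodes the drug sensor PXR, was lower by -4.96 ± 0.40 (adjusted p = 2.17e-12), with a WT median of 29.2 and an HO median of 0.128 FPKM. Vdr, the vitamin D receptor, was lower by -4.92 ± 0.36 (adjusted p = 2.97e-13), and Ahr was not called (0.12 ± 0.18, adjusted p = 0.564).

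Genes for the supply of sulfate were all lower, 6 of 6 tested, in HO (median -1.95), among them the sulfate transporter Slc26a2 (-4.77 ± 0.44, adjusted p = 4.11e-11) and Papss2, which makes the sulfate donor PAPS (-2.92 ± 0.25, adjusted p = 1.22e-11). Over all tested genes 38.4% were lower and 33.0% higher in HO. Of 7 tested genes listed for glucuronic acid supply 4 were lower and 1 higher, with Ugdh at -1.37 ± 0.16 (adjusted p = 6.09e-09). Gusb is in that list and was called, although its product beta-glucuronidase removes glucuronic acid rather than supplying it. The glutathione list went mostly the other way: 9 of 12 were higher and 2 lower (median 0.98). Slc7a11, the cystine importer, rose from a WT median of 0.281 to an HO median of 24.4 FPKM (4.83 ± 0.35, adjusted p = 3.42e-13), and Gsr, glutathione reductase, from 54.9 to 176 FPKM (1.70 ± 0.11, adjusted p = 6.15e-14). Both are also expressed by leukocytes, whose lists were higher in HO, and the part of those cells was not tested.

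Of 10 P450 partner and haem genes 6 were higher and 4 lower in HO, with Hmox1, which degrades haem, at 6.88 ± 0.37 (adjusted p = 7.00e-16) and Cyb5b at -1.20 ± 0.12 (adjusted p = 1.86e-10). Of 35 other tested phase I enzymes 27 were lower and 4 higher (median -1.99), with the carboxylesterase Ces2a at -6.96 ± 0.55 (adjusted p = 1.83e-12), the aldo-keto reductase Akr1c14 at -6.28 ± 0.46 (adjusted p = 3.63e-13) and Maoa, which oxidises amines, at -4.49 ± 0.31 (adjusted p = 1.04e-13). Of 13 other tested phase II enzymes 9 were lower and 2 higher, and Nnmt, which methylates nicotinamide, was among those higher (2.71 ± 0.21, adjusted p = 1.21e-12). The shares over all tested genes were 38.4% lower and 33.0% higher.

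In DHO against WT these lists differed in how many genes were called, where 8.7% of all tested genes were lower and 12.5% were higher. Of the other phase I enzymes 14 of 35 were lower and 2 higher, with Ces2a at -2.07 ± 0.55 (adjusted p = 0.0096). Of the 12 intestinal transcription factors limma called 0, with 3 lower at an unadjusted p below 0.05. In the list of clock and PAR-bZIP factors, which drive daily rhythms in detoxifying enzymes, 8 of 14 were lower and 2 higher. Dbp, a PAR-bZIP factor, was lower in DHO by -3.51 ± 0.68 (adjusted p = 0.0013), and Nfil3, which binds the same sites, was higher by 1.77 ± 0.33 (adjusted p = 0.000853). Dbp ranged from 1.08 to 87.9 FPKM within WT, from 1.28 to 87.9 in division 1 and from 1.08 to 66.3 in division 2, and from 0.355 to 2.87 FPKM within DHO. Nfil3 had division 1 medians of 1.69 FPKM in WT and 2.86 FPKM in DHO, with overlap. In division 2, which holds DHO replicates 8 and 9, its medians were 0.350 FPKM in WT and 9.76 FPKM in DHO. HO is not shown for this list, so these values do not mark a trait of DHO apart from HO. The hour of sampling is not given in the sources used here, and the part of these factors in the enzyme levels was not tested.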

How the data were processed

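Total RNA of mouse colon was isolated with TRIzol, and the VAHTS Universal V6 kit served for library construction, per the labels. Per the submitters' processing notes, fastp, HISAT2, HTSeq and build mm10 were used; no version, annotation or strand setting is named there. FPKM values, as computed and deposited by the authors, fill the table. Fragment totals were read from the steps between low values, so they are estimates, and no counting interval was computed. The file holds no counts, so depth limits mostly the genes near 0 FPKM.

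Libraries were grouped by labelled genotype and numbered in order of listing, which pairs nothing. Since the labels do not say that libraries are separate animals, p-values measure the spread between libraries. The highest correlation between 2 libraries was 0.993.

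limma 3.58.1 (R 4.3.3) was fitted to log2(FPKM + 0.5), 1 mean per group over 31 libraries, with variance trend and robust moderation, on the 12812 genes that reached 1 FPKM in 10 or more libraries. Tests were two-sided, with Benjamini-Hochberg adjustment over all genes tested and a threshold of 0.05. Fold changes are on this scale and understate those of low genes. The procedure was tested on simulated data. Alternatives were another pseudocount, no filter, median-of-ratios scaling, 2 groups only, the division by Gm15564, and leaving out libraries.

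Members and lists were chosen with earlier results of these data known. Members named are the 3 highest of each family, the 8 largest changes each way and those higher in HO, with up to 4 genes of each pathway list; Hnf4a, Ahr, Dbp, Cyp2c65, Cyp2d22, Cyp2w1, Cyp2e1, Alb, Serpina1a, Ttr, Tat, Cyp2ab1, Sult1e1, Sult5a1, Sult6b2 and Sult1c2 were named after their values were seen. Exon overlap and shared 50-base words came from GENCODE vM21 and promoters from RefSeq (GRCm38.p6, the assembly also called mm10). In the text, values of lowest, median and highest are FPKM, and ± is the SE. Some results for 1 transcription factor family are not reported here.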

Additional observations from a re-analysis of the deposited data

Results flagged for a closer look

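Within a group of 10 libraries, HO or DHO, a library far from the rest was seen for 14 of the 38 members examined, in 15 of the 76 groups. A nominal rate of about 1 in 20 is no firm yardstick here, as many HO values lie near 0. Cyp2c65, at 30.96 FPKM in HO replicate 2, was not among the 38. In HO replicate 2, 12 members stood apart: Cyp2c55 at 20.5, Cyp2d10 at 6.01, Cyp2d12 at 0.23, Cyp2d34 at 48.1, Cyp2d9 at 5.98, Cyp3a13 at 6.64, Gsta1 at 77.2, Sult1b1 at 11.5, Sult1d1 at 17.1, Ugt2b34 at 15.3 and Ugt2b35 at 0.444 FPKM were above the other HO libraries, and Cyp4v3 at 7.28 FPKM was below them. HO replicate 10 stood apart for Cyp2c68 at 0.0958 and Cyp2f2 at 0.0481 FPKM, both near 0. DHO replicate 8 stood apart for Sult1b1 at 18.6 FPKM, below the other DHO libraries. These 15 values come from 3 libraries, so they are not independent of each other.

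The effect differed between the divisions by Gm15564 for 22 members in DHO against WT and for 9 members in DHO against HO, by an interaction term in limma. Without DHO replicates 8 and 9, limma called 0 members in both, with 15 and 6 at an unadjusted p below 0.05.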

How the results depend on the processing

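The counts in HO against WT and in DHO against HO stayed within 1.5 times of those reported under every alternative run, counted over the 52 members and the pathway genes tested. For the 38 named members, 492 alternative values in HO against WT kept their direction and side of the threshold and 2 lost the call. In DHO against HO 497 kept it, 21 gained and 13 lost a call, and in DHO against WT 441, 38 and 53 did so. The single reversal was Gstm1 in DHO against HO, at -0.12 (adjusted p = 0.843) with division 2 alone.

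DHO against WT was the unstable comparison. The count of lower members was 30 with a term for the division, 1 with division 1 alone, 36 with division 2 alone, 10 without replicate 8 or 9 of DHO, 8 without both, and 24 without HO replicate 2. The count of higher members was 0 by limma with no filter, with the 2 groups alone, with division 1 alone, and wherever DHO replicate 8, 9 or both were left out, with 0 to 2 at an unadjusted p below 0.05. Of the pathway genes, 10 were higher and 30 lower; the higher count was 6 with no filter, 0 with division 1 alone (6 at an unadjusted p below 0.05) and 2 with division 2 without DHO replicates 8 and 9, and the lower count was 0 with division 1 alone (17 at an unadjusted p below 0.05), 55 with division 2 alone and 19 without DHO replicates 8 and 9. Relative to the colonocyte score the count of lower members was 5. Fits of 1 division use fewer libraries; otherwise the cause was not tested. A term for sex could not be fitted, because the libraries did not split by sex genes. Xist was at most 0.0112 FPKM and the Y-linked Ddx3y at least 4.33 FPKM in every library, the pattern of male tissue.

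No paired analysis was possible because the replicate numbers come from the order of listing. Alternatives leaving out HO replicate 2 with DHO replicates 8 and 9, and division 2 without DHO replicates 8 and 9, were chosen after seeing the data.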
